A study of Homo sapiens with 4 samples.

Results

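The genes described here build the centromere and the kinetochore, the protein platform that holds each chromosome to the spindle in mitosis. They are 35 genes of the 24462 gene symbols in the count files, chosen by name from the CENP, NDC80, MIS12, RZZ, SKA and chromosomal passenger groups, with the factors that load CENP-A, and all 35 were found in each of the 4 files. They were measured in HepG2 cells, a human cell line that the paper lists as hepatocellular carcinoma. In these cells CDK4 and CDK6 were either inhibited with PD0332991, a CDK4/6 kinase inhibitor, or depleted with siRNAs. The drug library has a library treated with the solvent DMSO as its control, and the library in which CDK4 and CDK6 were both knocked down (CDK4/6 KD) has a scrambled siRNA library. All 4 were grown in RPMI medium and sequenced from the 3′ ends of mRNA. The dose and exposure time of PD0332991 and the time after transfection are not given in the sources used here for the sequenced cells.

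A centromere is marked by nucleosomes that hold CENP-A in place of histone H3, and new CENP-A is loaded once in every cell cycle by a chaperone and the Mis18 complex. On these nucleosomes the constitutive centromere-associated network (CCAN) stays through the cell cycle, and in mitosis it is joined by an outer layer, in which the MIS12 complex links the inner proteins to the NDC80 complex, the main microtubule binder. The RZZ complex recruits the motor dynein and checkpoint proteins, the SKA complex holds on to the ends of microtubules, and the chromosomal passenger complex releases wrong attachments. CDK4 and CDK6 phosphorylate RB, which restrains E2F factors, and related pocket proteins, which as part of the DREAM complex repress late cell cycle genes through CHR promoter elements.

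Each condition has 1 library, so no difference below has a replicate check, and no test or p-value is given. Levels are counts-per-million (CPM), corrected for library size with TMM factors. Fold changes are given where a gene reached 10 reads in 1 or both of the libraries compared, and brackets hold 95% Clopper-Pearson intervals on the split of reads, which cover counting error only and compare libraries, not conditions. A gene was called lower or higher at a 2-fold difference. Library totals ran from 8983848 to 11176880 reads, and 12780 to 13257 genes had 10 reads or more. The knockdown took CDK4 from 354 CPM in its scrambled siRNA control to 71.9 CPM, a fold change of 0.203 [0.188 to 0.219], and CDK6 from 536 to 129 CPM, a fold change of 0.241 [0.228 to 0.256]. All 12 hepatocyte and HepG2 markers were detected in all 4 libraries.

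In the drug arm, 29 of the 34 members that passed the filter were at least 2-fold lower in PD0332991 than in DMSO, and 0 were higher. Among all genes tested, 7.06% were called lower and 7.49% higher. The median log2 fold change of the members was -2.38, against 0.02 for all genes, and their summed level was 2396 CPM in DMSO and 510 CPM in PD0332991, a fold change of 0.213 [0.206 to 0.22]. In the knockdown arm, 10 of 34 members were called lower and 0 higher, beside 7.62% and 9.19% of all genes. There the median log2 fold change was -0.67, against -0.00 for all genes, and the summed level was 1788 CPM in the scrambled control and 1102 CPM after knockdown, a fold change of 0.616 [0.603 to 0.631]. These are RNA levels of whole cultures, in which fewer dividing cells and less RNA per cell cannot be told apart. MKI67, the gene of the proliferation marker Ki67, had 414 CPM in DMSO, 31.3 in PD0332991, 282 in scrambled siRNA and 158 in CDK4/6 KD.

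**Figure D1:**
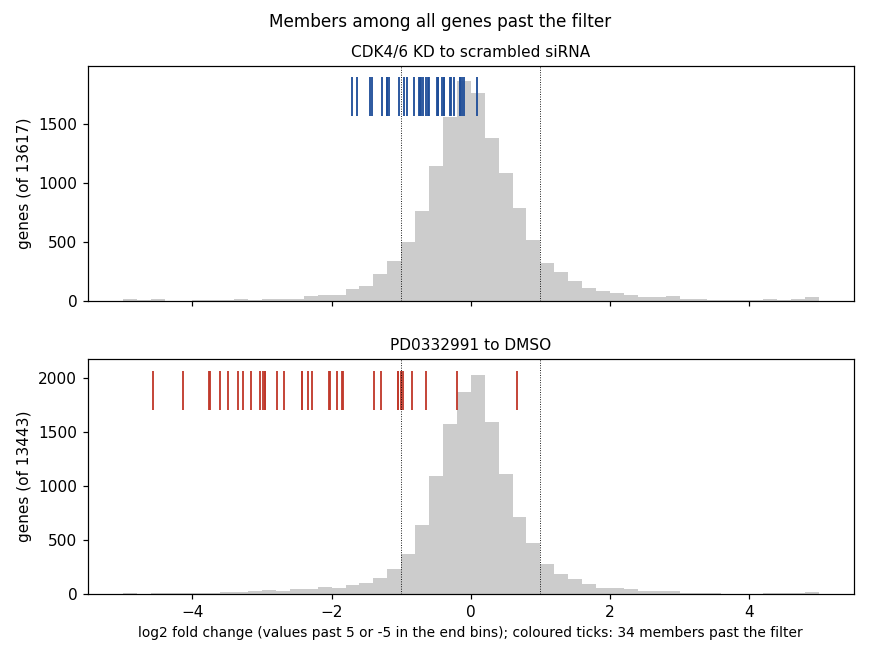
Histograms of the log2 fold change of all genes past the filter of 10 reads (grey, number of genes on the y axis), in CDK4/6 KD against scrambled siRNA (top) and PD0332991 against DMSO (bottom), with a coloured tick for each of the 34 centromere and kinetochore genes past the filter. Dotted lines mark 2-fold; 10 ticks lie past the lower line in the knockdown arm and 29 in the drug arm.

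The promoters of 5 members are shown because these genes are at the ends of the drug response: SPC25, CENPA and CENPE had the lowest fold changes of PD0332991 to DMSO among members with at least 50 reads in DMSO and a promoter entry, and PMF1 and CENPB the highest. Each runs from 250 bases before to 50 bases after the gene's start, on the gene's own strand, in the RefSeq promoter table for GRCh38.p14, and so covers the upstream region and the first bases of the gene. Capitals mark CHR elements (TTTGAA, with TTCGAA as a variant), CCAAT boxes and E2F sites (TTTCCCGC, TTTCGCGC, TTTGCCGC or TTTGGCGC), searched on both strands.
SPC25, chr2:168890381-168890680, minus strand: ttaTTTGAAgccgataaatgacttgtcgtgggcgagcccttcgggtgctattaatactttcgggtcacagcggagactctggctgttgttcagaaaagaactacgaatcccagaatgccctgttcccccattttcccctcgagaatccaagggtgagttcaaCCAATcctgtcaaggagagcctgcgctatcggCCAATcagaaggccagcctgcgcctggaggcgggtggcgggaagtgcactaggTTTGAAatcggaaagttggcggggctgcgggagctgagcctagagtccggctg
CENPA, chr2:26785806-26786105, plus strand: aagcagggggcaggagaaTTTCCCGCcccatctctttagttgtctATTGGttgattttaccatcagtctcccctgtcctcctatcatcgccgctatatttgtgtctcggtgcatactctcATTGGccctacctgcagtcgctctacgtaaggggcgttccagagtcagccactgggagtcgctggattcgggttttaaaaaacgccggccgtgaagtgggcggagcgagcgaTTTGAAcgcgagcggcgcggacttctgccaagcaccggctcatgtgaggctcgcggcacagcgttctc
CENPE, chr4:103198294-103198593, minus strand: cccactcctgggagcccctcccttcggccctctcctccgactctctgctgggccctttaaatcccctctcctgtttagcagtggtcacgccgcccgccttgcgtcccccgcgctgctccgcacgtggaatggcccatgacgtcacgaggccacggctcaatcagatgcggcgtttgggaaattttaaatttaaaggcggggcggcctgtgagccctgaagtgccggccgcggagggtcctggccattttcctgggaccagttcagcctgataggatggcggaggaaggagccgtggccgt
PMF1, chr1:156212757-156213056, plus strand: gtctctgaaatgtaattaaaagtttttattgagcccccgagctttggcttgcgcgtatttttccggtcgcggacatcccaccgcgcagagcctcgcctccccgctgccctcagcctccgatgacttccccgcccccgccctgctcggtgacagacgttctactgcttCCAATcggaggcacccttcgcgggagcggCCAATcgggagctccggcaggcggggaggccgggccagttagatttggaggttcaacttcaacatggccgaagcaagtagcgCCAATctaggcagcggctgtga
CENPB, chr20:3786691-3786990, minus strand: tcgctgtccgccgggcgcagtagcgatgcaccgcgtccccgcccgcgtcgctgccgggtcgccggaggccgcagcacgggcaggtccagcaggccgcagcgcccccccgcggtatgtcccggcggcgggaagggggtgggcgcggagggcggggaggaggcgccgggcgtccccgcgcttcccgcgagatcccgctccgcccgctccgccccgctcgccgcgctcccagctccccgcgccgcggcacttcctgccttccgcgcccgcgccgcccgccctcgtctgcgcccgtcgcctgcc
The SPC25 window held 2 CHR elements, from bases 4 and 248 of the window, and 2 CCAAT boxes. In the CENPA window there were 1 CHR element, 2 reversed CCAAT boxes and 1 E2F site. PMF1 held 3 CCAAT boxes, and neither CENPE nor CENPB held any of these letters in this window.

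Of the 35 members, 29 had an entry in the promoter table. A CHR element was found in 16 of them (55.2%), compared with 16.6% of all 27305 promoters in the table. It was found in 11.3% of the 9785 genes that had an entry and were past the filter in the drug arm. CCAAT boxes were found in 18 members (62.1%, against 35.7% and 36.8%), and E2F sites in 3 (10.3%, against 3.33% and 5.33%). Both a CHR element and a CCAAT box were held by 11 members (37.9%, against 6.58% and 4.86%). The 16 members with a CHR element had a median fold change of 0.117 in the drug arm (0.0424 to 0.5), and the 12 members past the filter without it had 0.433 (0.074 to 1.58). The same members had medians of 0.58 and 0.755 in the knockdown arm. With a CCAAT box the drug arm's median was 0.187 in 17 members, and without it 0.13 in 11, while in the knockdown arm the order was the reverse, 0.566 and 0.75. The 3 members with an E2F site had 0.112 in the drug arm and 0.815 in the knockdown arm, and the 25 without it 0.187 and 0.638. The ranges of these groups overlapped, and a match of letters shows no binding.

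CENPA, the histone H3 variant that marks the centromere, had 29.9 CPM in DMSO, 1.65 in PD0332991, 13.5 in scrambled siRNA and 11 in CDK4/6 KD. It was the member with the second lowest fold change in the drug arm, 0.0569 [0.0304 to 0.0926], on 273 and 15 reads. In the knockdown arm its fold change was 0.815 [0.635 to 1.04], an interval that includes 1. HJURP, the chaperone that carries CENP-A to the centromere, had 76.5 CPM in DMSO, 7.91 in PD0332991, 55.0 in scrambled siRNA and 23.9 in CDK4/6 KD. Unlike CENPA, HJURP was called lower in both arms, at 0.435 [0.375 to 0.503] in the knockdown arm and 0.104 [0.0799 to 0.132] in the drug arm. OIP5 and MIS18A are subunits of the Mis18 complex, which prepares centromeres for loading. OIP5 had 68.9, 7.69, 38.9 and 28.0 CPM in DMSO, PD0332991, scrambled siRNA and CDK4/6 KD, and MIS18A had 52.0, 14.4, 27.9 and 17.3. Both were lowest in PD0332991 and called lower in that arm alone. CENPB, which binds a short box in the satellite repeats of centromeres, had 53.8, 46.9, 56.5 and 52.7 CPM, and its fold change was 0.871 [0.763 to 0.993] in the drug arm and 0.931 [0.83 to 1.04] in the knockdown arm. It therefore varied little between the 4 libraries while the loading factors were several-fold lower in PD0332991.

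**Figure D2:**
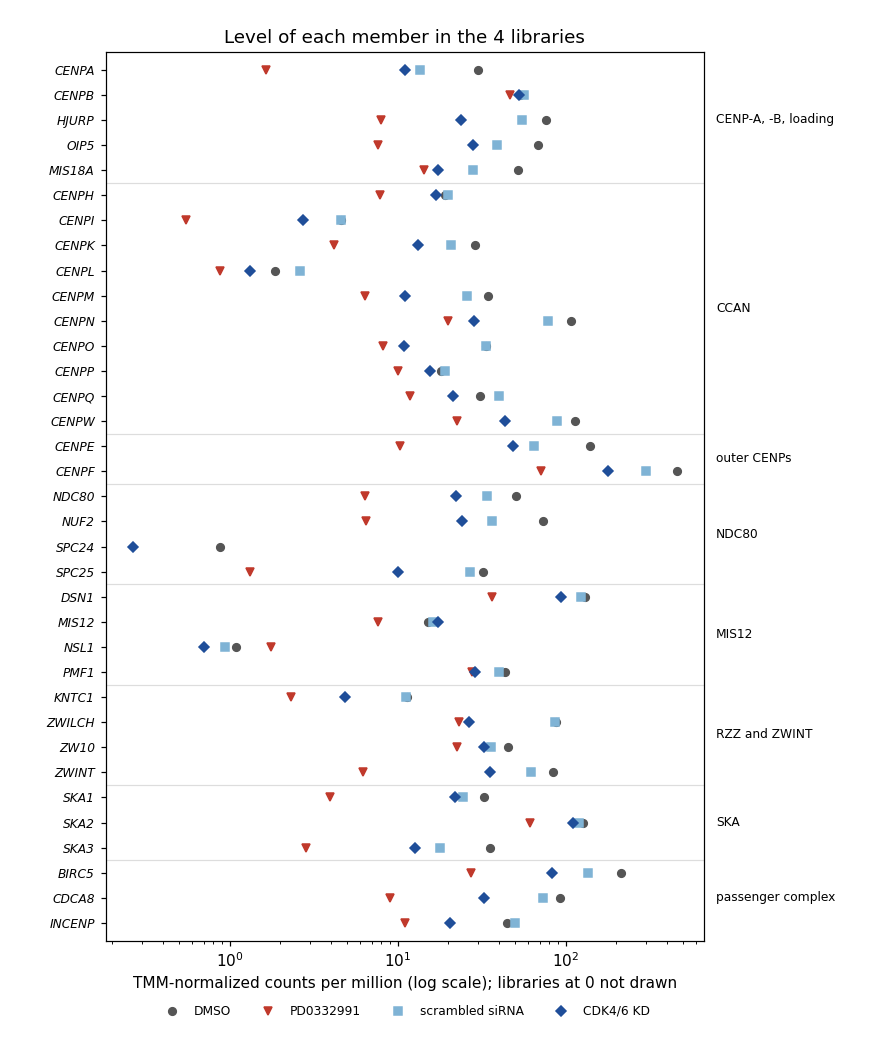
Level of each of the 35 genes, in TMM-normalized counts-per-million on a log axis, with 1 point for each of the DMSO, PD0332991, scrambled siRNA and CDK4/6 KD libraries and genes grouped by complex. PD0332991 points lie farthest to the left for most genes, NSL1 being the exception, and CENPB shows the points close together; SPC24 was at 0 in PD0332991 and scrambled siRNA, which are not drawn.

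In the CCAN, 9 of 10 members were called lower in PD0332991 and 4 of 10 in CDK4/6 KD, beside 7.06% and 7.62% of all genes. CENPH, CENPI, CENPK and CENPM belong to the same subcomplex. CENPH had 19.2 CPM in DMSO, 7.80 in PD0332991, 20.0 in scrambled siRNA and 16.9 in CDK4/6 KD, CENPK had 29, 4.17, 20.9 and 13.3, and CENPM had 34.4, 6.37, 25.8 and 11.1 in the same order. Each was lowest in PD0332991, and CENPM was also called lower in the knockdown arm. CENPI rested on few reads, 42 in DMSO, 5 in PD0332991, 49 in scrambled siRNA and 31 in CDK4/6 KD. It had the lowest CCAN fold change in the drug arm, 0.13 [0.0369 to 0.302]. CENPH had the highest in the knockdown arm, 0.844 [0.691 to 1.03]. CENPL and CENPN form a pair, of which CENPN reads the CENP-A nucleosome. CENPN had 107 CPM in DMSO, 19.9 in PD0332991, 78.2 in scrambled siRNA and 28.5 in CDK4/6 KD, lower in both arms. CENPL had only 17, 8, 28 and 15 reads, and its drug interval, 0.176 to 1.15, includes 1.

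CENPO, CENPP and CENPQ are subunits of another CCAN subcomplex, and they did not change alike. CENPO had 33.6 CPM in DMSO, 8.13 in PD0332991, 33.7 in scrambled siRNA and 10.9 in CDK4/6 KD. Its controls were close together, and its knockdown fold change, 0.323 [0.26 to 0.396], was the lowest of the CCAN. CENPP had 18.1, 9.99, 19.2 and 15.6 CPM in the same order and was the only CCAN member not called lower in the drug arm, at 0.555 [0.424 to 0.719]. CENPQ had 31.0, 11.8, 40.1 and 21.3 CPM. CENPW, a histone-fold protein that pairs with CENPT, had 114 CPM in DMSO, 22.5 in PD0332991, 88.5 in scrambled siRNA and 43.5 in CDK4/6 KD, with both treated libraries below both controls. The summed CCAN reads had a fold change of 0.495 [0.468 to 0.524] in the knockdown arm, the lowest of the 8 groups. This interval overlaps those of RZZ and ZWINT (0.505 [0.469 to 0.543]) and of the chromosomal passenger complex (0.523 [0.491 to 0.557]). By median fold change of the genes, the passenger complex was lowest in this arm, at 0.444, with RZZ and ZWINT at 0.497 and the CCAN at 0.523. In the drug arm the summed CCAN reads had 0.235 [0.217 to 0.253].

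CENPE and CENPF join the outer kinetochore in mitosis. CENPE, a kinesin motor that moves chromosomes towards the spindle's middle, had 140 CPM in DMSO, 10.3 in PD0332991, 65.0 in scrambled siRNA and 48.7 in CDK4/6 KD. CENPF, a large coiled-coil protein of the outer kinetochore, had 459, 71.4, 301 and 178 CPM in that order. For both the order was DMSO, scrambled siRNA, CDK4/6 KD and then PD0332991, with a wide step to the last. CENPE had a fold change of 0.074 [0.0591 to 0.0908] in the drug arm and 0.75 [0.669 to 0.839] in the knockdown arm, and CENPF 0.156 [0.143 to 0.169] and 0.593 [0.56 to 0.627].

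NDC80 and NUF2 form the end of the NDC80 complex that binds microtubules, and SPC24 and SPC25 the end that is anchored at the kinetochore. NDC80 had 50.8 CPM in DMSO, 6.37 in PD0332991, 34.2 in scrambled siRNA and 22.4 in CDK4/6 KD, while NUF2 had 73.2, 6.48, 36.4 and 24.0. SPC25 had 32.3, 1.32, 26.8 and 9.98 CPM, from 295, 12, 287 and 113 reads. The fold change of SPC25 in the drug arm, 0.0424 [0.0209 to 0.0724], was the lowest of the members and the 11th lowest of 13443 genes. In the knockdown arm SPC25 was the only NDC80 complex gene called lower (7.62% of all genes were), at 0.373 [0.297 to 0.464]. NUF2 had the highest fold change of the complex in that arm, 0.66 [0.563 to 0.772]. In the drug arm the highest was that of NDC80, 0.126 [0.0938 to 0.165]. SPC24 had 8 reads in DMSO, 0 in PD0332991, 0 in scrambled siRNA and 3 in CDK4/6 KD, so it passed the filter in no comparison and no fold is given. A count of 0 allows up to 3 reads.

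The MIS12 complex differed from the NDC80 complex that it holds in place. DSN1 had 131 CPM in DMSO, 36.6 in PD0332991, 124 in scrambled siRNA and 94.4 in CDK4/6 KD. Of the 4 genes of the complex, DSN1 alone was called lower in the drug arm (7.06% of all genes were), at 0.28 [0.247 to 0.316]. MIS12 had 15.2, 7.69, 16.3 and 17.3 CPM in the same order, and lay just outside the threshold with 0.507 [0.374 to 0.678] in the drug arm. Its knockdown fold change, 1.06 [0.864 to 1.31], was the only one over 1 among the members. PMF1 had 43.3, 27.7, 40.2 and 29 CPM, with the lowest fold change of the complex in the knockdown arm, 0.721 [0.623 to 0.834]. NSL1 had 10, 16, 10 and 8 reads, and its intervals, 0.685 to 3.96 in the drug arm and 0.259 to 2.13 in the knockdown arm, leave its direction undetermined at this depth. The summed reads of the complex had a fold change of 0.387 [0.354 to 0.424] in PD0332991, the highest of the 8 groups, where the NDC80 complex had the lowest, 0.0901 [0.0747 to 0.108]. These intervals lie apart, while that of the SKA complex, 0.35 [0.319 to 0.384], overlaps the first. Single genes weigh heavily in these sums: in DMSO, SKA2 held 1159 of 1782 SKA reads and DSN1 1194 of 1739 MIS12 reads. By median fold change of the genes in the drug arm, the MIS12 complex had 0.569, the SKA complex 0.123 and the NDC80 complex 0.0892.

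KNTC1 (the Rod protein), ZWILCH and ZW10 make up the RZZ complex, and ZWINT ties it to the kinetochore. KNTC1 had 11.4 CPM in DMSO, 2.31 in PD0332991, 11.2 in scrambled siRNA and 4.86 in CDK4/6 KD, while ZWILCH had 88.1, 23.3, 87.0 and 26.6. For these genes the controls were close together and both treated libraries were more than 2-fold lower. ZWILCH had the lowest fold change of all members in the knockdown arm, 0.306 [0.267 to 0.348], and 0.265 [0.226 to 0.308] in the drug arm, intervals that overlap. ZW10, which also acts in membrane traffic outside mitosis, had 45.5, 22.7, 36.1 and 32.5 CPM. It lay just inside the threshold in the drug arm, at 0.5 [0.421 to 0.591], and had 0.901 [0.779 to 1.04] in the knockdown arm. ZWINT had 84.6, 6.26, 62.4 and 35.3 CPM, with the lowest drug fold change of the group, 0.0746 [0.0555 to 0.0969].

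**Figure D3:**
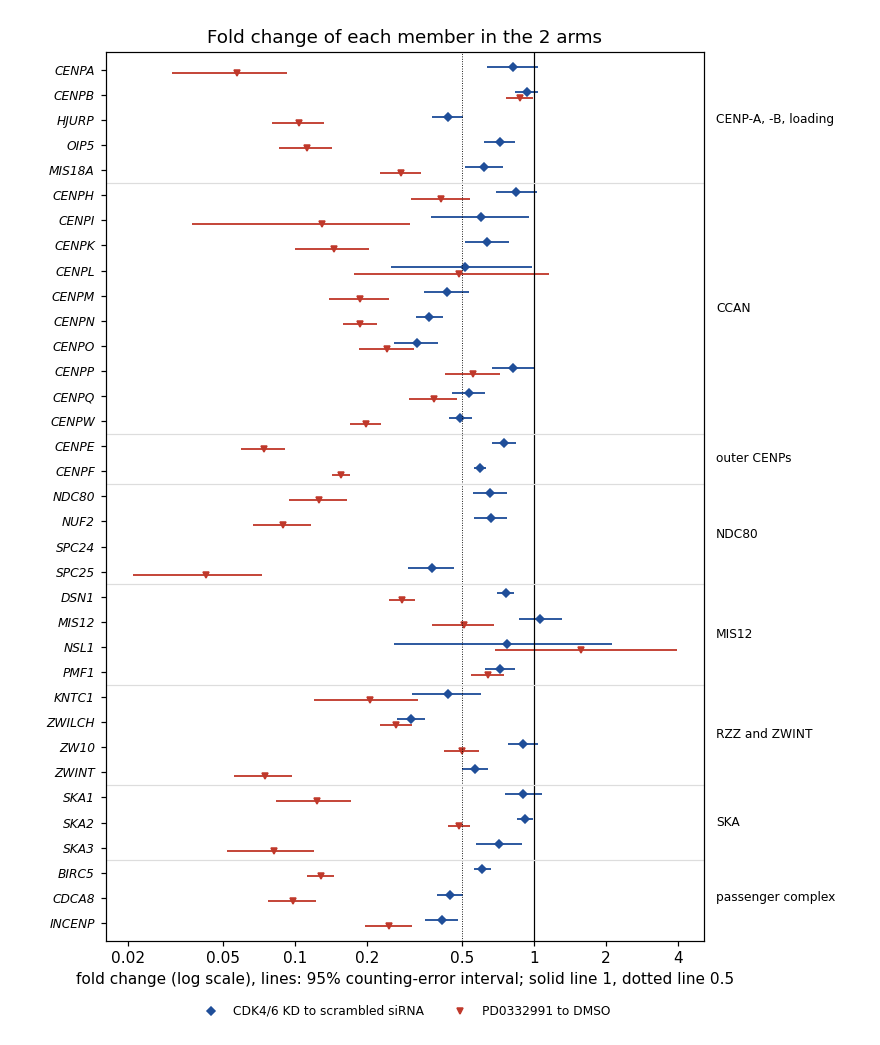
Fold change of each gene on a log axis in CDK4/6 KD against scrambled siRNA (diamonds) and in PD0332991 against DMSO (triangles), with lines for the 95% counting-error interval, a solid line at 1 and a dotted line at 0.5. The triangle lies to the left of the diamond for 33 of the 34 genes drawn, a count that was not taken over all genes. SPC24 had too few reads to be drawn.

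The SKA complex had no gene called lower in the knockdown arm and all 3 in the drug arm, beside 7.62% and 7.06% of all genes. SKA1 had 32.6 CPM in DMSO, 3.95 in PD0332991, 24.4 in scrambled siRNA and 22.0 in CDK4/6 KD, while SKA3 had 35.6, 2.86, 17.8 and 12.6. SKA2 had 127, 61.5, 120 and 110 CPM, close together but for PD0332991. SKA3 had the lowest fold changes of the complex, 0.0817 [0.0517 to 0.12] in the drug arm and 0.712 [0.569 to 0.889] in the knockdown arm, and SKA2 the highest, 0.485 [0.438 to 0.537] and 0.917 [0.847 to 0.992]. Subunits of this complex thus differed among themselves in the drug arm, where the intervals of SKA1 and SKA3 lie below that of SKA2. Summed, the complex had a fold change of 0.892 [0.833 to 0.955] in the knockdown arm, the highest of the 8 groups.

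BIRC5 (survivin), CDCA8 (borealin) and INCENP place the Aurora B kinase at the inner centromere. BIRC5 had 215 CPM in DMSO, 27.5 in PD0332991, 136 in scrambled siRNA and 82.6 in CDK4/6 KD. CDCA8 had 92.5, 9.01, 73.5 and 32.6 CPM, and INCENP had 44.7, 11, 50 and 20.6. All 3 genes were called lower in the drug arm (7.06% of all genes were), and CDCA8 and INCENP in the knockdown arm too (7.62% of all genes). CDCA8 had the lowest fold change of the group in the drug arm, 0.0979 [0.0767 to 0.122], and INCENP the highest, 0.247 [0.196 to 0.307]. In the knockdown arm the order of these ends was another, with INCENP lowest at 0.412 [0.351 to 0.481] and BIRC5 highest at 0.607 [0.558 to 0.659]. The summed reads had fold changes of 0.523 [0.491 to 0.557] in the knockdown arm and 0.135 [0.122 to 0.149] in the drug arm.

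**Figure D4:**
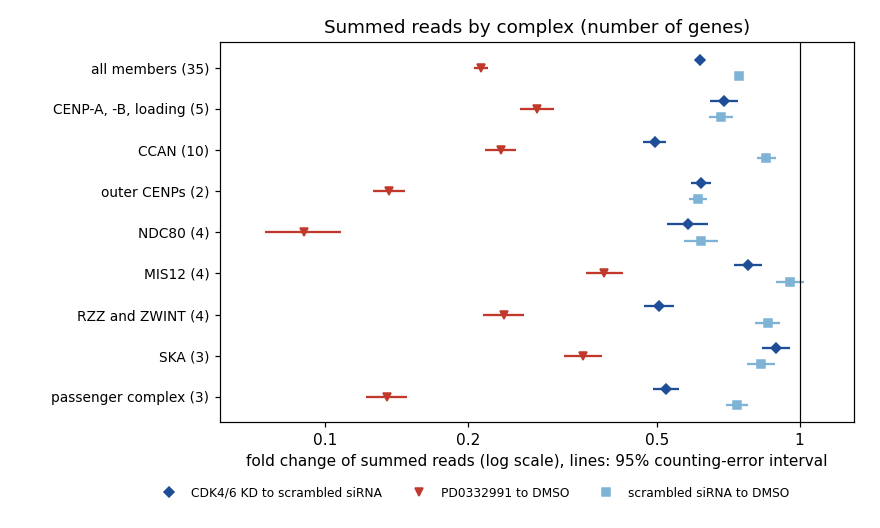
Fold change of the summed reads of all 35 genes and of each of the 8 groups on a log axis, in CDK4/6 KD against scrambled siRNA, PD0332991 against DMSO and scrambled siRNA against DMSO, with lines for the 95% counting-error interval. In the drug arm the NDC80 complex lies lowest, at 0.0901, and the MIS12 complex highest, at 0.387; in the knockdown arm the CCAN lies lowest, at 0.495, and the SKA complex highest, at 0.892.

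Set side by side, the arms had 10 members called lower in both (HJURP, CENPM, CENPN, CENPO, CENPW, SPC25, KNTC1, ZWILCH, CDCA8 and INCENP), 19 in PD0332991 alone, 0 in CDK4/6 KD alone and 5 in neither. Among the 13099 genes past the filter in both arms these shares were 1.49%, 5.37%, 5.37% and 87.8%. For 25 of the 34 members the drug interval lay wholly below the knockdown interval, for 0 the reverse, and for 9 they overlapped, CENPO and ZWILCH among them. Over the same 13099 genes the drug interval lay below for 21.2% and above for 21.1%. Counted by interval, 32 of 34 members lay wholly under 1 in the drug arm (28.6% of all genes did) and 26 in the knockdown arm (31.9% of all genes). With the stricter call of the whole interval at or under 0.5, the numbers were 25 in the drug arm (3.38% of all genes) and 5 in the knockdown arm (3.22%). The arms also differ in agent and in transfection, and the part of these in the difference was not tested.

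The controls themselves differed in these genes. In scrambled siRNA against DMSO, 4 members were called lower (CENPA, CENPE, NUF2 and SKA3) and 0 higher, beside 6.64% and 5.3% of all genes, and the interval lay wholly under 1 for 19 members (28% of all genes) and over 1 for CENPQ alone, at 1.29 [1.11 to 1.51]. The median log2 fold change was -0.33, against 0.01 for all genes, and the summed reads had a fold change of 0.746 [0.732 to 0.761]. CENPA was lowest, at 0.451 [0.365 to 0.553], and CENPE had 0.463 [0.422 to 0.509]. The outer CENPs had 0.611 [0.586 to 0.637] as a group and the MIS12 complex 0.953 [0.893 to 1.02]. This comparison shares a library with each of the other comparisons, so its values are not independent of theirs. Against DMSO in place of scrambled siRNA, CDK4/6 KD had 21 members called lower (8.16% of all genes were) and summed reads at 0.46 [0.45 to 0.47] of the control. CENPE then had a fold change of 0.347 [0.314 to 0.384] in place of 0.75, whereas CENPO had 0.324 [0.26 to 0.4] and ZWILCH 0.302 [0.264 to 0.345], close to their values against scrambled siRNA. DMSO was the highest library for 26 of the 35 members, and the order DMSO, scrambled siRNA, CDK4/6 KD and PD0332991 held for 25. The shares of all genes with these patterns were not computed.

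**Figure D5:**
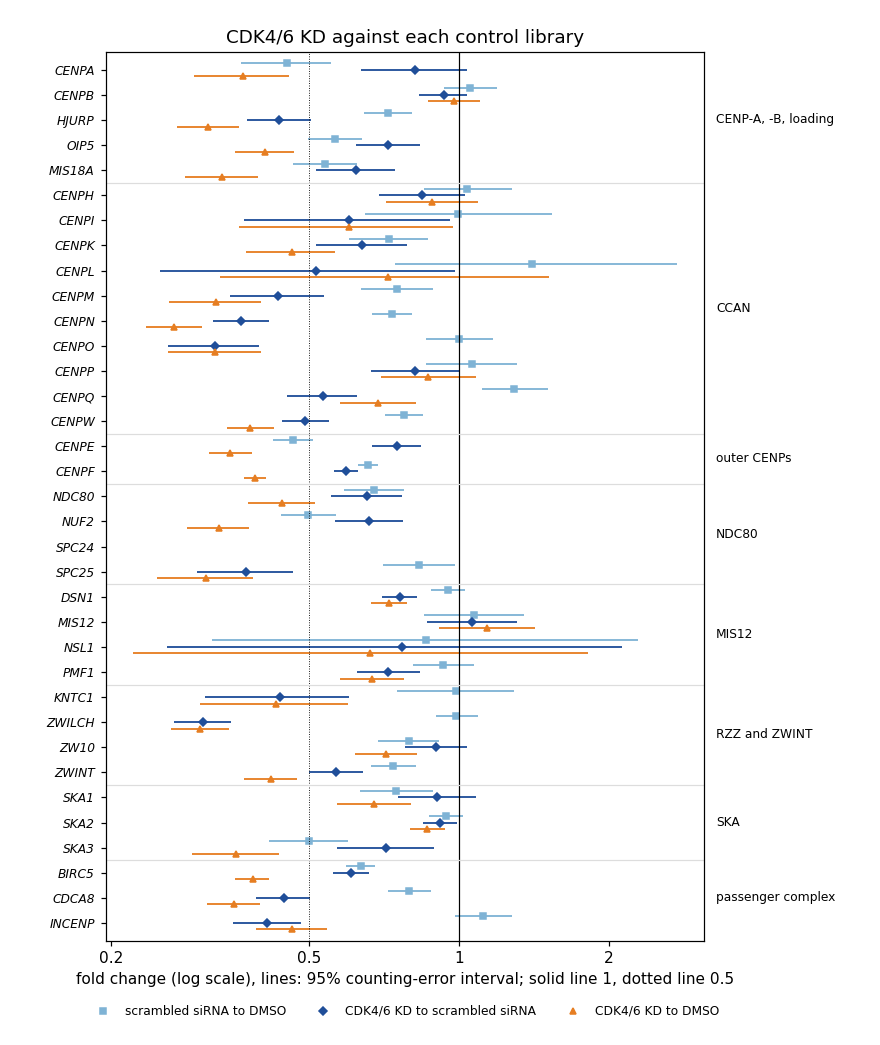
Fold change of each gene on a log axis in scrambled siRNA against DMSO (squares), CDK4/6 KD against scrambled siRNA (diamonds) and CDK4/6 KD against DMSO (triangles), with lines for the 95% counting-error interval. For CENPO, KNTC1 and ZWILCH the squares lie near 1 and the other symbols together; for CENPA, CENPE and SKA3 the squares lie near 0.5.

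Markers of other cells were also looked at in the 4 libraries. Of 14 basal keratinocyte markers, 3 had at least 10 reads in DMSO, 10 in PD0332991, 9 in scrambled siRNA and 8 in CDK4/6 KD. PD0332991 was at least 2-fold above DMSO for 8 of the 10 that could be compared, beside 7.49% of all genes. KRT5, KRT14, KRT15, KRT6A, KRT6B, KRT16 and LGALS7 passed the filter only through their reads in PD0332991, so this count leans towards that library. The summed level of the 14 markers was 144, 159, 327 and 126 CPM in DMSO, PD0332991, scrambled siRNA and CDK4/6 KD. SFN had 134, 61.8, 305 and 102 CPM of it, which was most of the sum in every library but PD0332991. COL17A1 was at 0 in DMSO and scrambled siRNA, TP63 at 0 in scrambled siRNA, and DSC3 and DSG3 at 0 in CDK4/6 KD. Of 6 fibroblast markers the summed level was 48.5, 78.4, 8.78 and 22.4 CPM, with DCN at 0 in both controls and LUM at 0 in both transfected libraries, and of 4 blood cell markers 8.43, 12.3, 12.7 and 6.80, with CD3E and HBB at 0 throughout. The hepatocyte markers summed to 22580, 26609, 25951 and 28528 CPM. The part of other cells in the members' differences was not tested.

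Another 20 genes that act at the kinetochore, of which 19 passed the filter, also held genes called lower in both arms. In PD0332991, 15 of 19 were called lower, with a median log2 fold change of -2.64, and in CDK4/6 KD 8 of 19, with -0.73. Of all genes, 7.06% were called lower in PD0332991 and 7.62% in CDK4/6 KD. Of those that reached 50 reads, AURKB, the kinase of the passenger complex, was lowest in both arms, at 0.0905 [0.0746 to 0.108] and 0.368 [0.333 to 0.406]. STRA13 (CENPX, a histone-fold partner of CENPS) was highest in the drug arm at 0.766 [0.698 to 0.839], and CENPC, the scaffold that joins CENP-A nucleosomes to the CCAN and MIS12 complex, was highest in the knockdown arm at 1.74 [1.32 to 2.31]. CENPC had 19.3 CPM in DMSO, 8.90 in PD0332991, 7.66 in scrambled siRNA and 13.3 in CDK4/6 KD, so that the scrambled siRNA library was its lowest. Of 40 replication licensing and replisome genes, 18 were called lower in CDK4/6 KD (median log2 fold change -0.97) and 35 in PD0332991 (-2.16), and of 12 mitotic kinesins 5 (-0.88) and 12 (-3.00). Whether the members differ from these sets was not tested.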

How the data were processed

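RNA of HepG2 cells was sequenced in 4 libraries, 1 per condition (DMSO, PD0332991, scrambled siRNA and CDK4/6 KD), with a QuantSeq 3′ mRNA kit. Raw counts of reads, listed by gene symbol in 1 table for each library and not normalized, were deposited. The submitters' processing notes name Bowtie2, edgeR and hg19. The counter, the annotation and the strand setting are not given in the sources used here. The paper's results call the data microarray data, but its methods and the whole-number values are those of sequencing.

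The tables hold 25737 entries each. Counts of 286 repeated symbols were summed, giving 24462 genes, and 0 members were repeated. Library sizes were corrected with TMM factors (0.957 to 1.03) from edgeR 4.0.16 in R 4.3.3. To each count 0.5 reads, in proportion to the size of the library, were added before fold changes were taken, and genes that reached 10 reads in neither library were left out. Intervals (95%, Clopper-Pearson, scipy 1.17.1) were computed for how the reads of a gene divide between 2 libraries. They cover counting error only, since each condition has 1 library, and they treat reads as independent. The paper's methods describe no molecular identifiers. A fold change of 2 was the call. The script was tested on simulated data. Within a comparison, 1 library a side leaves edgeR's quasi-likelihood fit no residual degrees of freedom. A fit that takes PD0332991 and CDK4/6 KD as replicates of 1 treatment was not made, because the labels give them as separate conditions.

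The 35 members and all lists were chosen with earlier results of these data known. All members were named, with intervals for the lowest and highest of each complex in each arm, and further intervals were chosen after the values were seen. The alternatives were DESeq2 1.42.0 size factors, total counts alone, another pseudocount, other filters, other handling of repeated symbols, other calls and the control of the other arm. Promoters are RefSeq sequences on GRCh38.p14, while the counts were made on another build, so no read was placed on them, and a symbol with several entries was taken by its first. In GENCODE 29, the last 500 bases of 4 members overlap an exon of the opposite strand (OIP5, CENPP, SPC24 and ZWILCH), from which reads cannot be told apart without strand, and CENPI and SKA2 have annotated pseudogenes.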

Additional observations from a re-analysis of the deposited data

How the results depend on the processing

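No paired analysis was possible because the labels give no replicate numbers and each comparison has 1 library a side, and a fit with the arms as blocks of 1 shared treatment was not made. In CDK4/6 KD against scrambled siRNA, the 10 members called lower became 20 with calls at 1.5-fold, 5 with the whole interval past 2-fold and 21 with DMSO as the control, while the share of all genes went from 7.62% to 17.4%, 3.22% and 8.16%. The median log2 fold change of -0.67 became -1.24 with DMSO as the control, and the summed reads of 0.616 became 0.46 with that control and 0.663 with total counts alone, which moved the median of all genes to 0.10 on the log2 scale. In PD0332991 against DMSO, the 29 members called lower ranged from 25 to 32, while the share of all genes, 7.06%, ranged from 3.38% to 15.1%. The summed reads of 0.213 became 0.285 with scrambled siRNA as the control. In scrambled siRNA against DMSO, the 4 members called lower became 2 with a pseudocount of 5 reads, 8 with calls at 1.5-fold and 0 with the whole interval past 2-fold (6.64% of all genes, then 5.19%, 15.7% and 1.99%), and the summed reads of 0.746 became 0.713 with total counts alone. The cause of these shifts was not tested. No called value changed direction under the alternatives run. Of the values of single members and groups, 701 stayed within their counting-error interval and 58 moved out of it, 26 with DMSO and 24 with scrambled siRNA as the other arm's control and 8 with total counts alone. The 701 include 93 with the filter of 50 reads and 102 with no filter, which could not move, because a filter leaves a gene's own fold change as it is. They also include 126 for the handling of repeated symbols, which no member had, so that only library sizes could shift them. Depth limits CENPI, CENPL, NSL1 and SPC24 most.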

Other observations

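The make-up of the reads of the 35 genes also differed between the libraries. CENPB, which binds centromeric satellite DNA, took 2.25% of these reads in DMSO (exact 95% binomial interval 2.05 to 2.45%), 9.19% in PD0332991 (8.37 to 10.1%), 3.16% in scrambled siRNA (2.92 to 3.42%) and 4.78% in CDK4/6 KD (4.41 to 5.16%). SKA2 took 5.29% (5.0 to 5.6%), 12% (11.1 to 13.0%), 6.69% (6.34 to 7.05%) and 9.94% (9.43 to 10.5%) in the same order. The larger shares in PD0332991 are not higher levels. From DMSO to PD0332991, CENPB went from 53.8 to 46.9 CPM and SKA2 from 127 to 61.5 CPM, while the reads of all members together fell more. The share of CENPF was 19.1% in DMSO (18.6 to 19.7%) and 14% in PD0332991 (13.0 to 15.0%), and that of CENPA was 1.25% (1.1 to 1.4%) and 0.323% (0.181 to 0.532%). These shares are of reads within 1 library each and cover counting error only. All 35 genes together held 0.24% of the reads in DMSO, 0.0517% in PD0332991, 0.171% in scrambled siRNA and 0.113% in CDK4/6 KD.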
